A study of Mus musculus with 2 samples.

Results

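The transcriptional regulators of mitochondrial and fatty acid metabolism examined here were 10 genes, taken by symbol from the 19465 genes of the count tables. They comprised the coactivators Ppargc1a and Ppargc1b, the nuclear receptors Ppara, Ppard and Pparg, the estrogen-related receptors Esrra, Esrrb and Esrrg, and the factors Nrf1 and Tfam, and all 10 had at least 20 UMIs over both sections. Gene expression was measured with the Visium CytAssist assay in FFPE heart sections of 5 μm, which hybridizes gene probes to the tissue and reads them out on barcoded array spots as unique molecular identifiers (UMIs). One section came from a control α-MHC-MerCreMer+/− mouse and the other from an α-MHC-MerCreMer+/−TOP2B LSL/− transgenic mouse. Both genotypes carried the tamoxifen-dependent Cre recombinase MerCreMer under the cardiomyocyte α-MHC promoter, and both received 1 intraperitoneal dose of 80 mg/kg of tamoxifen, given at 6 weeks of age per the study's methods. In the transgenic mouse the Cre removes a stop cassette in front of a human TOP2B cDNA with a CAG promoter at the Rosa26 locus, so the transgene is driven in cardiomyocytes, while the mice share all other alleles the labels name. The time between tamoxifen and collection of these hearts was not given in the sources used here.

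The control section had 1256 spots and 14376300 UMIs, and the transgenic section had 924 spots and 12953389 UMIs. Each spot covers a patch of tissue that may contain more than 1 cell type. With 1 section per genotype there was no replicate and no test was run, and every interval below covers counting error alone. Values are UMIs per 1000000 UMIs of the section (CPM), and ratios are log2 of transgenic over control CPM with a 95% interval in brackets. Across 15236 genes with at least 20 UMIs the median log2 ratio was 0.20, so a gene at 0 stood below the typical gene. With TMM factors in place of totals every ratio was lower by 0.16, so that ratios between 0 and this size, the median of the coactivators below among them, changed sign. The mouse Top2b probes gave 1531 UMIs in the control and 1318 in the transgenic section, with a log2 ratio of -0.07 [-0.17, 0.04], and whether they detect the human cDNA was not given in the sources used here. Summed cardiomyocyte markers took 7.26% of control and 3.74% of transgenic UMIs, a log2 ratio of -0.96, with 6 of 7 genes lower. Fibroblast markers were 0.105% and 0.444%, macrophage markers 0.0315% and 0.0621%, and erythroid markers 0.215% and 2.04% of UMIs. Endothelial markers were 0.0977% and 0.0916%. The part that this shift in markers played in the values below was not tested, and fewer cells of a type and less RNA per cell cannot be told apart in summed spots.

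PGC-1α, encoded by Ppargc1a, and PGC-1β, encoded by Ppargc1b, are coactivators that do not bind DNA themselves but dock on transcription factors and raise the output of their target genes. In heart muscle their main partners are PPARα, a fatty acid sensor that pairs with an RXR receptor and drives genes of fatty acid uptake and oxidation, and the estrogen-related receptors, which act without a known natural estrogen ligand on genes of the tricarboxylic acid cycle and the respiratory chain. NRF1 and GABP act on nuclear genes for mitochondrial proteins, among them Tfam, whose product packages mitochondrial DNA and starts its transcription.

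The upstream 250 bases of the promoters of 9 of the 10 genes were read from the RefSeq promoter table of GRCm38.p6, and Ppargc1b was not matched. The letters of 4 motifs were searched on both strands, and each was also counted over the promoters of 27025 genes. The estrogen-related receptor element TCAAGGTCA stood in 0.422% of all genes' promoters, its shorter receptor core AAGGTCA in 4.70%, the NRF1 motif GCGCATGCG in 1.64% and the GABP motif CCGGAAG in 7.83%. The core lies inside the longer element, so the matches of these overlap. Among the 9 matched genes, 0 held either receptor motif, 1 held the NRF1 motif and 1 held the GABP motif. Of the lists below, 1 of 13 matched coactivators and kinases held the core, as did 2 of 4 matched RXR and thyroid hormone receptors. These 2 receptor genes were Rxrg and Rxra, with log2 ratios of -2.58 and -0.18. The core was in 1 of 30 matched target genes of the estrogen-related receptors (3.33%) and 1 of 28 matched PPAR target genes (3.57%). Both shares were below the 4.70% of all genes. It was in 1 of 19 matched genes of mitochondrial DNA and the NRF axis, and in 0 of 6 matched corepressors. The stretches that hold a match are shown for Ppara and Tfam, for Perm1 and Rxrg, a coactivator and a receptor partner with large differences between the sections, and for Atp5g3, 1 of 30 matched target genes of the estrogen-related receptors and the one with the full element. They run 5′ to 3′ on the strand of the gene with the match in capitals.
Ppara, chr15:85735715-85735775, plus strand: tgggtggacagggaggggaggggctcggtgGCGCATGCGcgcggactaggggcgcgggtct
Tfam, chr10:71238055-71238121, minus strand: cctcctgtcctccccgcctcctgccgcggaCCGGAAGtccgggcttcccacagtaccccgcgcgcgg
Perm1, chr4:156215695-156215761, plus strand: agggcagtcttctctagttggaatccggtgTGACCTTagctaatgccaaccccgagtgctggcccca
Rxrg, chr1:167618146-167618212, plus strand: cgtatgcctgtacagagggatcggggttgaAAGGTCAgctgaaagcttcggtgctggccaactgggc
Atp5g3, chr2:73911340-73911408, minus strand: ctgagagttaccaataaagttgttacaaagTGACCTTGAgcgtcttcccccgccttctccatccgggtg
The match begins 31 bases before the annotated start in Ppara, 47 in Tfam, 202 in Perm1, 89 in Rxrg and 52 in Atp5g3. In Perm1 and Atp5g3 the capitals are the reverse complement of the motif. A match of letters is a description of the window and does not show that a factor binds there.

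Of the 10 regulators, 9 had a lower CPM in the transgenic section, as had 36.8% of all genes tested. For 8 of the 10 the interval lay below 0, which was so for 17.0% of all genes tested. A level at least 1.5-fold lower was found for 4 of the 10, namely Ppara, Ppargc1a, Esrra and Esrrb, beside 12.9% of all genes. None of the 10 was at least 1.5-fold higher, beside 27.4% of all genes. The median log2 ratio of the 10 was -0.44, which is -0.65 relative to the median of all genes. Each section was also split into 4 quadrants as a spread inside the section, and for Ppargc1a, Ppargc1b, Ppara, Ppard, Esrra and Esrrb all transgenic quadrants lay below all control quadrants, as was so for 13.1% of all genes. The gap was narrow for Ppargc1b, with a lowest control quadrant of 104 CPM and a highest transgenic quadrant of 103 CPM. For Ppard these were 21.8 and 19.7 CPM. Beside the summed cardiomyocyte markers at -0.96, the log2 ratios of Ppara and Ppargc1a were lower, and those of the other 8 were higher. The single markers ran from -1.92 for Tnni3 to 0.17 for Tnnt2, with Ttn at -0.60 and Ryr2 at -0.50. This order therefore depends on which markers are summed.

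**Figure D1:**
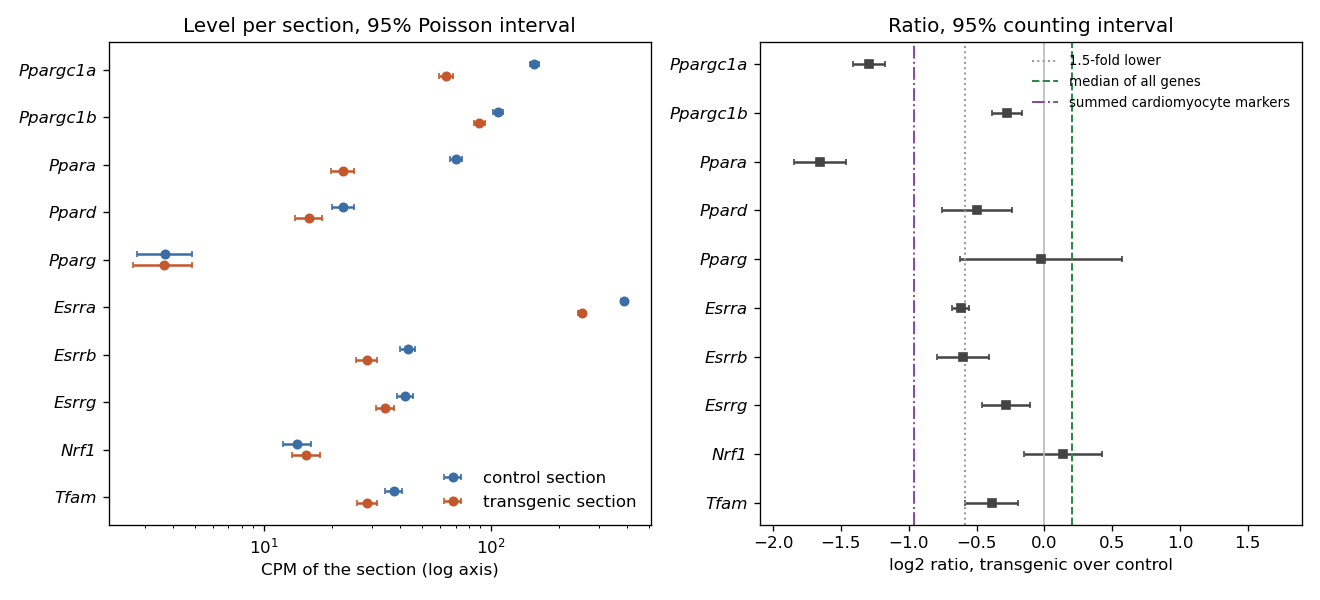
The left panel plots the CPM of the 10 genes in the control (blue) and transgenic (orange) section on a log axis with 95% Poisson intervals, and the right panel the log2 ratio of transgenic over control with its 95% counting interval. Ppara and Ppargc1a lie to the left of the summed cardiomyocyte markers at -0.96 (dash-dotted line), while Pparg and Nrf1 have intervals that hold 0; the dotted line marks 1.5-fold lower and the dashed line the median of all genes at 0.20.

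The coactivator Ppargc1a was counted 2240 times in the control and 824 times in the transgenic section, or at 156 and 63.6 CPM. The log2 ratio was -1.29 [-1.41, -1.18], and 2.82% of the tested genes had a lower ratio. Its level over the quadrants ran from 146 to 163 CPM for the control and from 54.0 to 78.1 CPM for the transgenic section, so the sections were far apart. Spots with a UMI of Ppargc1a made up 79.0% of control and 54.0% of transgenic spots. The shares were 68.8% and 39.0% once spots had been thinned to 8134 UMIs. Left out there were 140 control and 78 transgenic spots that did not reach this depth. The paralog Ppargc1b differed less, with 1552 and 1155 UMIs, 108 and 89.2 CPM and a log2 ratio of -0.28 [-0.39, -0.17]. Each section was also limited to the 50% of its spots with the highest share of cardiomyocyte marker UMIs, called cardiomyocyte-rich below. The markers Myh6, Tnni3 and Myl2, at log2 ratios of -1.69, -1.92 and -1.29, were reported by the study as lower in transgenic cardiomyocytes. A high marker share in the transgenic section therefore need not mean more cardiomyocytes, and this was not tested. In the cardiomyocyte-rich spots the log2 ratio of Ppargc1b was -0.06, while that of Ppargc1a was -1.24. Of the UMIs of both paralogs, Ppargc1a took 59.1% (exact binomial interval 57.5 to 60.6) in the control and 41.6% (39.5 to 43.8) in the transgenic section. This share does not depend on how the sections were scaled. Spots with a UMI of Ppargc1b were 67.6% and 66.8%, and 58.6% and 51.9% after thinning.

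Ppara encodes the PPAR with the best known part in cardiac fatty acid oxidation, and it had the lowest ratio of the 10. It was counted 1014 and 290 times, or at 70.5 CPM (control) and 22.4 CPM (transgenic), and the log2 ratio was -1.66 [-1.85, -1.47]. Its control quadrants held 68.2 to 73.6 CPM and its transgenic quadrants 14.9 to 31.7 CPM, so they were far apart. A lower ratio was seen for 1.32% of the tested genes, and Ppara UMIs were found in 53.3% of control and 25.2% of transgenic spots. In the cardiomyocyte-rich spots the log2 ratio was -1.44. Ppard, the widely expressed paralog, had 321 and 205 UMIs, at 22.3 and 15.8 CPM, with a log2 ratio of -0.50 [-0.76, -0.24], and its ratio lay just short of 1.5-fold lower. Pparg, the paralog best known from fat cells, was counted 53 and 47 times, at 3.69 and 3.63 CPM, and the log2 ratio of -0.02 [-0.62, 0.57] leaves room for a difference in either direction. A UMI of Pparg was found in 4.14% and 5.09% of spots. The 8 fat cell markers summed to 433 UMIs in the control and 1497 in the transgenic section, at a log2 ratio of 1.94 [1.78, 2.10], and 372 and 1457 of these were UMIs of the lipid droplet gene Cidea. The defining markers Adipoq, with 8 and 7 UMIs, and Plin1, with 5 and 3, were near 0, and what part fat cells had in the Pparg counts was not tested. Of the UMIs of Ppara and Ppard together, Ppara took 76.0% (73.6 to 78.2) in the control and 58.6% (54.1 to 63.0) in the transgenic section.

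Esrra, the gene of ERRα and an established target as well as partner of PGC-1α, was counted 5539 times in the control and 3257 times in the transgenic section. The CPM was 385 and 251, with quadrants from 369 to 399 and from 228 to 284, and the log2 ratio was -0.62 [-0.68, -0.55]. A UMI of Esrra was found in 97.0% of control and 91.0% of transgenic spots. Esrrb, which encodes ERRβ, had 619 and 368 UMIs, at 43.1 and 28.4 CPM, and a log2 ratio of -0.60 [-0.79, -0.41]. Both lay just beyond 1.5-fold lower, and in the cardiomyocyte-rich spots, at log2 ratios of -0.45 each, neither did. Without spots in which erythroid markers made up 10% or more of UMIs, Esrra stood at -0.59 and Esrrb at -0.57. Of the 10 genes, 3 then remained at least 1.5-fold lower, beside 12.5% of all genes. Esrrg, the gene of ERRγ, had 601 and 445 UMIs, at 41.8 and 34.4 CPM, with a log2 ratio of -0.28 [-0.46, -0.10], and its quadrants overlapped, at 37.5 to 46.9 CPM (control) and 28.0 to 39.5 CPM (transgenic). Esrrb took 50.7% (47.9 to 53.6) of the UMIs of Esrrb and Esrrg in the control and 45.3% (41.8 to 48.8) in the transgenic section. These intervals overlap.

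Nrf1 was the regulator with the highest ratio, with 202 UMIs in the control and 200 in the transgenic section, 14.1 and 15.4 CPM, and a log2 ratio of 0.14 [-0.15, 0.43]. The sign of this ratio depended on scaling, since it was -0.02 with TMM factors. Tfam was counted 539 and 371 times, at 37.5 and 28.6 CPM, with a log2 ratio of -0.39 [-0.58, -0.20]. Its quadrants overlapped narrowly, at 34.0 to 40.9 CPM (control) and 23.5 to 34.3 CPM (transgenic), and in the cardiomyocyte-rich spots its log2 ratio was -0.17.

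Among 15 other coactivators, acetylases, deacetylases and kinases of the pathway, 4 were at least 1.5-fold lower and 2 at least 1.5-fold higher, beside 12.9% and 27.4% of all genes, with a median log2 ratio of 0.12. The count at least 1.5-fold higher was 0 when scaled by TMM or by DESeq2 size factors, beside 20.7% and 21.3% of all genes. The lowest was Perm1, a striated muscle coactivator induced by PGC-1 and ERR, with 2740 UMIs in the control and 656 in the transgenic section and a log2 ratio of -1.91 [-2.04, -1.79]. Sirt3, a mitochondrial deacetylase, followed at -1.09 [-1.29, -0.90] and Lpin1, a phosphatidate phosphatase that also coactivates PPARα, at -1.05 [-1.15, -0.95]. The fourth was Prkaa2, the AMP-activated kinase subunit of muscle, at -0.90 [-0.99, -0.80], while its paralog Prkaa1 stood at 0.35 [0.13, 0.58]. The highest ratios were those of the histone demethylase gene Kdm1a at 0.71 [0.51, 0.90], the acetylase gene Kat2b at 0.59 [0.49, 0.69] and the p160 coactivator gene Ncoa3 at 0.57 [0.24, 0.89]. Pprc1, the third member of the PGC-1 family, was counted 265 and 263 times, with a log2 ratio of 0.14 [-0.11, 0.39].

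Of 8 corepressor genes, 0 were at least 1.5-fold lower and 2 at least 1.5-fold higher, beside 12.9% and 27.4% of all genes. Their median log2 ratio was 0.26, beside 0.20 for all genes. With TMM factors the counts were 1 and 1, beside 17.2% and 20.7% of all genes. Tbl1xr1, an exchange factor of the NCoR complex, was highest at 1.12 [0.93, 1.31], and its paralog Tbl1x stood at 0.57 [0.39, 0.76]. Nrip1, which encodes the PGC-1 antagonist RIP140, was lowest at -0.51 [-0.78, -0.24], followed by Ncor1 at -0.24 [-0.37, -0.11] and Kat2a, the acetylase that silences PGC-1α, at -0.10 [-0.32, 0.12].

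Rxrg, which encodes the muscle-enriched partner receptor RXRγ, had 1337 UMIs in the control and 201 in the transgenic section. This is 93 and 15.5 CPM, and the log2 ratio was -2.58 [-2.80, -2.37], lower than for any of the 10 regulators. The quadrants ran from 86.5 to 97.0 CPM and from 11.1 to 21.6 CPM and did not meet. Rxra, which encodes the broadly expressed partner, differed far less, at -0.18 [-0.33, -0.04], and Rxrb stood at -0.36 [-0.49, -0.23]. Of the UMIs of Rxrg and Rxra, Rxrg took 61.1% (59.0 to 63.2) in the control and 22.9% (20.2 to 25.9) in the transgenic section. The thyroid hormone receptor genes went opposite ways, with Thrb at -1.32 [-1.65, -0.99] and Thra at 0.58 [0.48, 0.68].

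Of 22 genes of mitochondrial DNA upkeep and of the NRF axis, 9 were at least 1.5-fold lower and 0 at least 1.5-fold higher, beside 12.9% and 27.4% of all genes, with a median log2 ratio of -0.28. The lowest was Mgme1, a nuclease of mitochondrial DNA, at -1.35 [-1.67, -1.05]. Next were the mitochondrial nuclease gene Endog at -1.26 [-1.35, -1.18] and the MTERF family gene Mterf2 at -1.10 [-1.51, -0.71]. The factors that work with TFAM were lower too, with Tfb2m at -0.62 [-0.75, -0.49] and the polymerase gene Polrmt at -0.74 [-0.93, -0.56]. The GABP subunit gene Gabpa, at -0.02 [-0.40, 0.36], and Gabpb1, at 0.12 [-0.22, 0.46], had intervals that hold 0. At the upper end stood Rnaseh1 at 0.34 [0.09, 0.59], Tk2 at 0.28 [-0.02, 0.58] and Gabpb2 at 0.24 [0.04, 0.44]. The GABP motif was in the promoters of 9 of the 19 matched genes of this list, beside 7.83% of all genes. It was in 3 of 30 matched targets of the estrogen-related receptors and 3 of 28 matched PPAR targets. Among genes whose symbol begins with Nduf it was in 5 of 34 matched. It was in 1 each of 13 matched coactivators and kinases, 6 corepressors and 4 RXR and thyroid hormone receptors.

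Of 36 measured target genes of the estrogen-related receptors, 35 had a lower CPM in the transgenic section, beside 36.8% of all genes. At least 1.5-fold lower were 29 and at least 1.5-fold higher 0, beside 12.9% and 27.4% of all genes. The median log2 ratio of these targets was -0.93. The listed targets are genes of the tricarboxylic acid cycle, the respiratory chain and energy transfer, and many are abundant in cardiomyocytes. Cox7a1 and Cox8b, muscle isoforms of cytochrome oxidase subunits, stood at -2.02 and -1.48, and the electron transfer flavoprotein gene Etfb at -1.47 [-1.50, -1.44]. Atp5g3, whose promoter is shown above, was counted 45451 and 23181 times, with a log2 ratio of -0.82 [-0.84, -0.80]. The highest ratios were those of Bcat2, of branched-chain amino acid breakdown, at 0.05 [-0.03, 0.13], Idh3b at -0.16 [-0.31, -0.01] and Cox6c at -0.50 [-0.54, -0.47].

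The 36 PPAR target genes were more mixed, with 16 at least 1.5-fold lower and 3 at least 1.5-fold higher, beside 12.9% and 27.4% of all genes, and a median log2 ratio of -0.47. Ucp3, a mitochondrial carrier of muscle, lay far below all other genes named here, with 1426 UMIs in the control and 24 in the transgenic section and a log2 ratio of -5.74 [-6.39, -5.16]. Its CPM over the quadrants was 93.3 to 105 in the control and 1.11 to 2.81 in the transgenic section. Among the β-oxidation genes, Hadh stood at -1.69 [-1.79, -1.59], Hadhb at -1.30 [-1.34, -1.26] and Acadvl at -1.05 [-1.09, -1.01], and the lipoprotein receptor gene Vldlr at -1.60 [-1.69, -1.52]. Other classical targets barely differed, with Pdk4 at -0.12 [-0.20, -0.04], Cpt1b at -0.10 [-0.14, -0.06] and Acadl at -0.07 [-0.09, -0.04]. Among the higher genes were Cpt1a, the liver isoform of the carnitine transferase, at 0.89 [0.80, 0.98], and the lipase inhibitor gene Angptl4 at 0.65 [0.08, 1.23] with 46 and 65 UMIs.

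**Figure D2:**
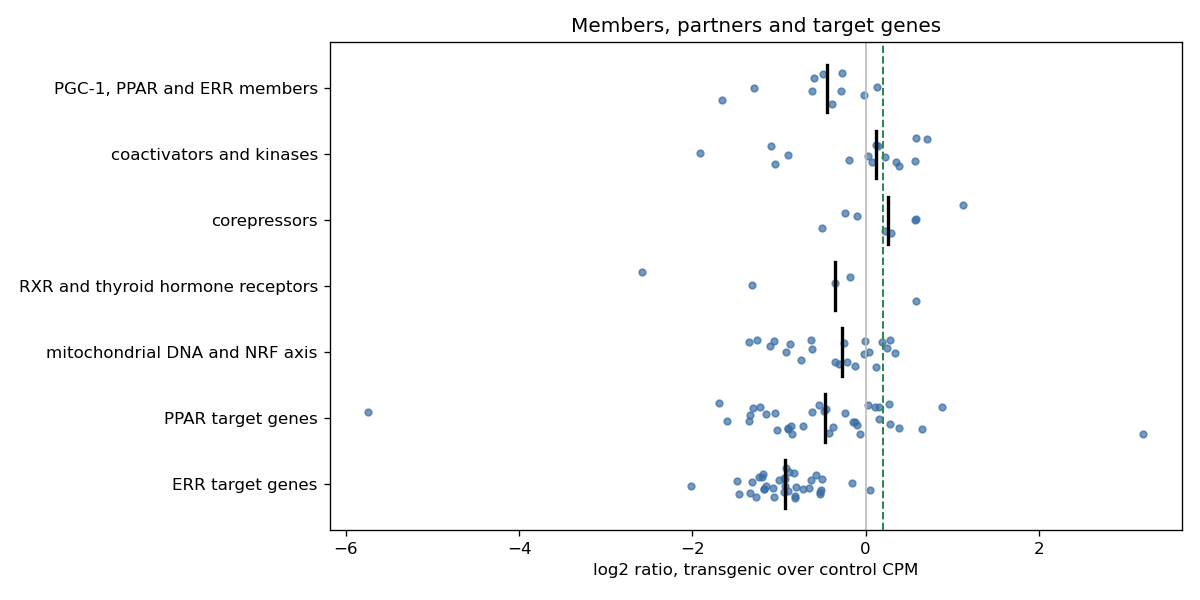
Each point is a gene with at least 20 UMIs, placed by its log2 ratio of transgenic over control CPM, in rows for the 10 regulators and 6 lists of partners and targets; black bars are row medians, the grey line is 0 and the dashed line is the median of all genes at 0.20. The target genes of the estrogen-related receptors lie almost wholly below 0, with a median of -0.93, while the corepressors center near all genes at 0.26, and Ucp3 at -5.74 marks the lower end of the PPAR targets.

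The genes whose symbol begins with Nduf encode subunits and assembly factors of respiratory complex I, and their sum was set beside the regulators spot by spot. The 41 genes took 3.62% of control and 1.97% of transgenic UMIs, and 32 were at least 1.5-fold lower, beside 12.9% of all genes. Across the 1256 control spots, the Spearman correlation between a regulator and the Nduf sum, both per 10000 UMIs of the spot, was at most 0.084 for all 10. Across 923 transgenic spots it exceeded 0.1 for 6, at 0.32 for Esrra, 0.25 for Ppargc1b, 0.17 for Ppargc1a and 0.15 for each of Esrrb, Tfam and Ppara. It also exceeded 0.1 for Perm1, at 0.27, and Rxrg, at 0.15, and the share of all genes above 0.1 was not computed. These are descriptions without a p value, since spots of a section share the library and their neighbors and most regulators have few UMIs per spot. Over 4 quadrants of the transgenic section the value for Esrra ran from 0.13 to 0.48, and those for Ppargc1b, Ppargc1a and Esrrb stayed above 0. The values for Tfam, from -0.10 to 0.16, and Ppara, from -0.08 to 0.13, changed sign between quadrants. For the 846 transgenic spots with at least 8134 UMIs, each thinned to that depth, the Spearman correlation was 0.22 for Esrra and 0.14 for Ppargc1b. It was 0.11 for Tfam and below 0.1 for Ppargc1a, Ppara and Esrrb. The 78 shallower spots were left out, so lower depth and the choice of spots cannot be told apart here. Without the 54 transgenic spots in which erythroid markers made up 10% or more of UMIs, Esrra stood at 0.23, Ppargc1b at 0.18 and Ppargc1a at 0.12, and Tfam, at 0.093, was below 0.1. As Pearson correlations of log2 values, Esrra stood at 0.20 in the control and 0.48 in the transgenic section, and Ppargc1a at 0.11 and 0.21. By that measure these genes exceeded 0.1 in the control section too.

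The spots of each section were then ordered by Nduf share and put into 4 groups of like size. In the transgenic section the Nduf share ran from 1.26% of UMIs in the lowest to 2.87% in the highest group, and in the control from 3.25% to 3.95%, so the groups' shares did not meet. Esrra in the transgenic section went from 196 to 305 CPM over the 4 groups, a log2 ratio of highest over lowest of 0.63 [0.48, 0.78]. Ppara reached 36.9 CPM in the highest group against 17.0 CPM in the lowest, at 1.11 [0.63, 1.62], and its middle groups, at 19.5 and 16.4 CPM, were as low as the lowest one. Esrrb differed by 0.92 [0.46, 1.38], Tfam by 0.79 [0.33, 1.25], Ppargc1b by 0.64 [0.38, 0.89] and Ppargc1a by 0.48 [0.20, 0.77]. Esrrg was lower in the highest group, at 23.9 CPM, than in the lowest, at 34.8 CPM, a log2 ratio of -0.54 [-0.98, -0.10]. Its middle groups, at 40.1 and 37.9 CPM, lay above the lowest one, so there was no steady fall. Its spot correlation with the Nduf sum was -0.007. In the control section the interval lay above 0 for Ppargc1a, at 0.19 [0.01, 0.37], and below 0 for Ppard, at -0.68 [-1.22, -0.14], and held 0 for the other 8.

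**Figure D3:**
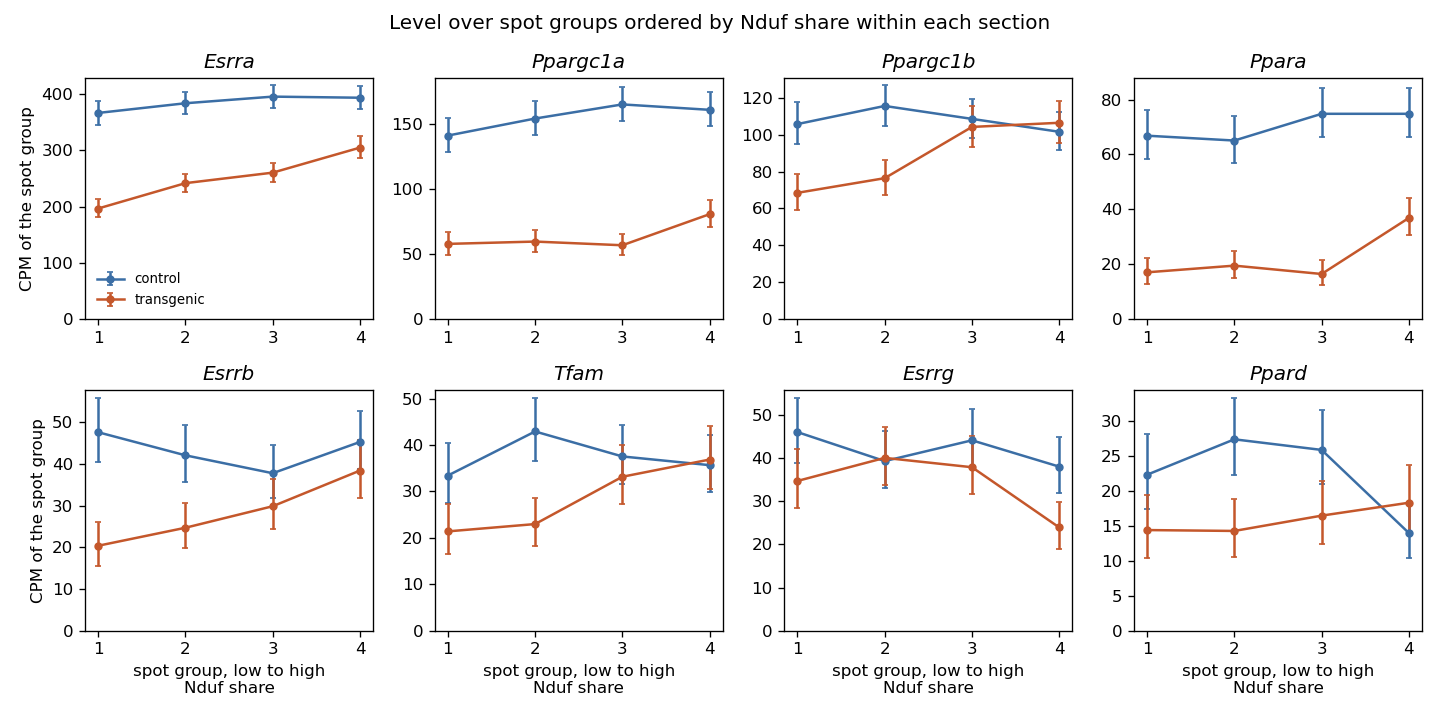
CPM of 8 regulators in 4 groups of spots ordered by the Nduf share of their UMIs within the control (blue) and transgenic (orange) section, with 95% Poisson intervals. Ppargc1b and Tfam in the transgenic group with the highest Nduf share reach control levels, at 107 and 36.9 CPM, while Ppargc1a at 80.7 and Ppara at 36.9 CPM stay below every control group.

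Set beside the control group with the lowest Nduf share, the transgenic group with the highest share came nearest in Nduf content. The log2 ratio of that transgenic group over that control group was 0.01 [-0.21, 0.23] for Ppargc1b, at 107 and 106 CPM, and 0.14 [-0.25, 0.53] for Tfam, at 36.9 and 33.4 CPM. It was -0.81 [-1.03, -0.58] for Ppargc1a, -0.86 [-1.20, -0.53] for Ppara and -0.94 [-1.36, -0.54] for Esrrg. Esrra stood at -0.27 [-0.39, -0.14] and Esrrb at -0.31 [-0.66, 0.04]. For the partners the gap was larger, at -1.23 [-1.44, -1.01] for Perm1 and -1.96 [-2.35, -1.59] for Rxrg. The groups still differed in Nduf share, at 2.87% and 3.25%.

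Summing spots into tiles of 6 array rows by 12 array columns gave 43 control and 36 transgenic tiles. The median tile held 157 CPM of Ppargc1a among control and 62.0 CPM among transgenic tiles, and 2 of the 36 transgenic tiles exceeded the lowest control tile. For Esrra the medians were 375 and 248 CPM, and 11 transgenic tiles exceeded the lowest control tile of 281 CPM. For Ppara they were 72.0 and 20.5 CPM, and 17 transgenic tiles exceeded the lowest control tile of 21.6 CPM, the highest lying at 45.3 CPM. For Esrra and Ppara this lowest control tile was the same one, of 12 spots and 46337 UMIs, the fewest UMIs of any control tile. The next lowest control tiles held 301 CPM of Esrra and 37.3 CPM of Ppara, which fewer transgenic tiles exceeded. For Ppargc1a, Esrra and Ppara alike, 0 transgenic tiles exceeded the control median. This was so for the Nduf share of UMIs too, and such tile counts were not made over all genes. For Ppargc1b, at medians of 107 and 89.3 CPM, 28 transgenic tiles exceeded the lowest control tile, so the sections overlapped broadly. In 2 neighboring transgenic tiles erythroid markers made up 78.7% and 65.6% of UMIs, and Nduf genes 0.181% and 0.465%. These tiles held 1 and 6 UMIs of Esrra, too few to give a level.

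**Figure D4:**
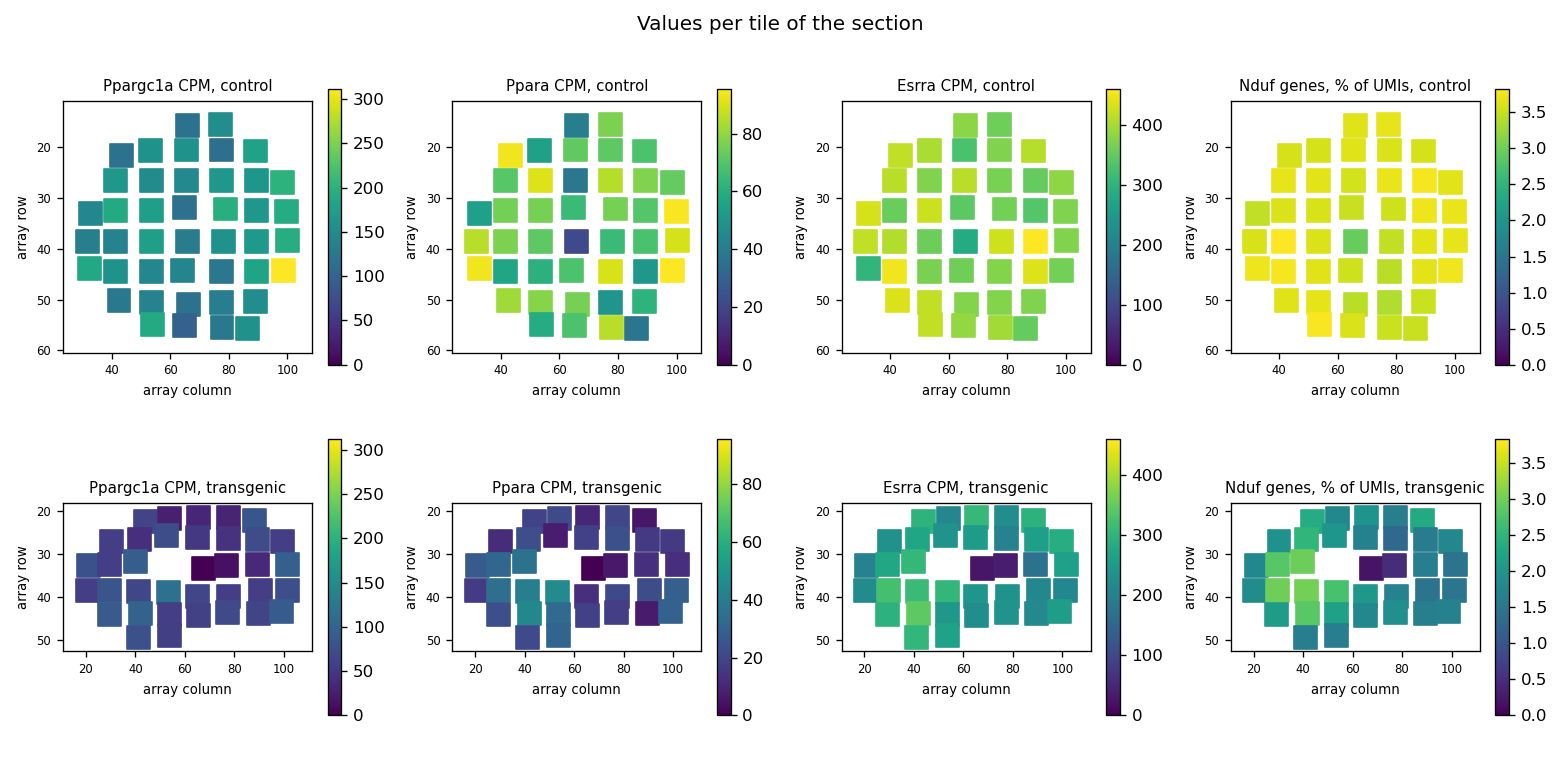
Squares are tiles of the control (top) and transgenic (bottom) section at their array row and column, colored by the CPM of Ppargc1a, Ppara or Esrra or by the percent of UMIs from Nduf genes, with the same color scale in both sections. Transgenic tiles are mostly darker for Ppargc1a, with a median of 62.0 against 157 CPM and 2 of 36 above the lowest control tile, Esrra and the Nduf share are highest toward the left side of the transgenic section, and the 2 darkest central tiles are those rich in erythroid UMIs.

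In the transgenic section the tile level of Esrra ran with the cardiomyocyte marker share at a Spearman rho of 0.69, that of Ppargc1b at 0.63, Tfam at 0.60, Ppargc1a at 0.55 and Ppara at 0.51. In the control section the same 5 values lay between -0.11 and 0.14. With tiles of 8 rows by 16 columns these 5 values were -0.07 to 0.36 (control) and 0.55 to 0.72 (transgenic). With the endothelial markers the transgenic values were 0.46 for Ppargc1a and for Ppargc1b, 0.44 for Ppara, 0.38 for Esrra and 0.28 for Tfam. In the control section these endothelial values ran from -0.28 for Ppargc1a to 0.39 for Esrra. With the fat cell markers, mostly Cidea, Tfam stood at 0.51 and Esrra at 0.43 in the transgenic section, and at 0.16 and -0.04 in the control. Esrra in the transgenic section ran against the fibroblast markers at -0.45, and Esrrg ran with them at 0.26. Without the 2 tiles rich in erythroid UMIs the cardiomyocyte values were 0.63 for Esrra, 0.56 for Ppargc1b, 0.53 for Tfam, 0.47 for Ppargc1a and 0.43 for Ppara. Against the Nduf share the transgenic tiles gave 0.69 for Esrra, 0.61 for Tfam and 0.57 for Ppargc1b, and 0.63, 0.54 and 0.49 without these tiles. For Ppargc1a the value was higher in the control, at 0.48 against 0.38, and for Ppara it was 0.36 in the control and 0.43 in the transgenic section. Without the 2 tiles rich in erythroid UMIs the transgenic values were 0.27 for Ppargc1a and 0.33 for Ppara, both below those of the control. Esrrb ran against the Nduf share over control tiles, at -0.46, and with it over transgenic tiles, at 0.30. The Nduf share of the tiles ran from 2.95% to 3.83% in the control and from 0.181% to 3.01% in the transgenic section. The lowest control value was that of the tile with 46337 UMIs, and the next lowest was 3.37%. Among the regulators themselves the highest value over transgenic tiles was that of Esrra with Tfam, at 0.62, followed by Ppargc1a with Esrra at 0.55. Over control tiles these pairs stood at -0.26 and -0.08. They were not recomputed without the 2 tiles rich in erythroid UMIs. The deposited Moran's I, a score of how alike neighboring spots are, was 0.019 in the control and 0.207 in the transgenic section for Esrra, and 0.040 and 0.083 for Ppargc1a. A higher score in the transgenic section was not particular to them. It was 0.093 and 0.612 for the marker Tnnt2 and 0.041 and 0.682 for Slc25a4, while Tagln went the other way, at 0.306 and 0.216.

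**Figure D5:**
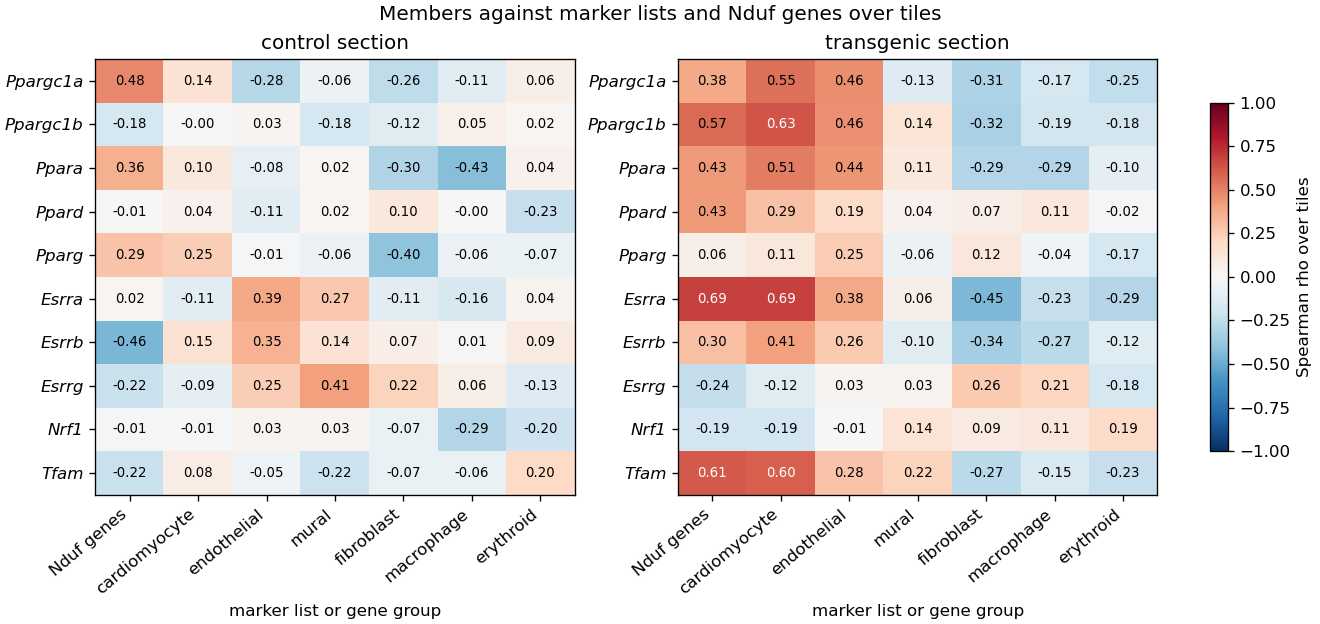
Spearman rho over 43 control and 36 transgenic tiles between the CPM of each regulator (rows) and the share of UMIs of the Nduf genes or of a marker list (columns), from -1 (blue) to 1 (red). In the transgenic section Esrra and Tfam reach 0.69 and 0.61 with the Nduf genes and 0.69 and 0.60 with the cardiomyocyte markers, whereas in the control section the cardiomyocyte column stays between -0.11 and 0.25.

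The genes most like each regulator were taken as those with the highest mean of the 2 sections' tile rho, among 6790 genes with at least 200 UMIs in each section and for the 5 regulators with at least 1000 UMIs. For Esrra they were Slc2a4, the insulin-responsive glucose transporter, at 0.57, Hadh at 0.54, and Rhot2 and Atp5d at 0.53 each. For Ppargc1a they were Ptgds at 0.55, Coq10a at 0.54, and Frmd5, Pde8a and Aldh6a1 at 0.51, 0.51 and 0.50. Ppargc1b was most like the β-oxidation gene Hadhb, at 0.50, followed by Psmd9, Vegfa, Kif26a and the mitochondrial helicase gene Twnk, at 0.49 to 0.46. Ppara was most like Sod1, at 0.50, followed by Pfkm, Timm23, Mdh1 and Nceh1, at 0.49 to 0.46. For Esrrg the closest was Ctnnb1, at 0.49, with Maged1, Anxa4, Gaa and Ralb at 0.46 to 0.44. With 43 and 36 tiles and so many genes compared, the highest values are picked from a wide spread, and the ranks are descriptions of these sections.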

How the data were processed

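Visium CytAssist FFPE libraries of 1 control and 1 transgenic heart section were used. The values are raw UMI counts per gene and spot that the authors deposited, not normalized, for spots over tissue, made with Space Ranger 2.0.0 per the file headers. The submitters' notes name the builds GRCm39 and mm39, and the probe set was not given in the sources used here. Because probe numbers per gene can differ, levels were compared between sections and not between genes. Moran's I is a score that the authors deposited per gene and section, used as given. The sections share 725 spot barcodes, which belong to the array design.

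UMIs were summed per section and divided by the section total (CPM). Intervals at 95% were exact Poisson for levels, exact conditional binomial for log2 ratios and Clopper-Pearson for shares. A gene was counted as lower or higher at a 1.5-fold difference, with at least 20 UMIs over both sections, and a count of 0 was set to 3 counts. The study's methods test spots of cardiomyocyte clusters with a Wilcoxon test, which was not repeated because spots are not replicates. The regulators, gene lists, marker lists and naming rule were chosen with earlier results of these data known. Named were the regulators, the 3 highest and 3 lowest genes of each list and the 5 genes most alike over tiles, of which a few are not reported here; Prkaa1, Prkaa2, Pprc1, Rxrb, Tfb2m, Polrmt, Gabpa, Gabpb1, Atp5g3, Hadhb, Acadvl, Pdk4, Cpt1b and Acadl were added after their values were seen, as was Cidea. Tiles had at least 10 spots. Intervals and ratios were tested on simulated data.

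Alternatives were TMM factors (edgeR 4.0.16) and size factors (DESeq2 1.42.0), other totals, subsets of spots, spot means, 1 CPM added, other UMI minimums, and thinned or tiled correlations. Subsets by erythroid or fibroblast share were chosen after seeing the data. Python 3.11.15, numpy 2.4.6, scipy 1.17.1, pandas 2.3.3 and matplotlib 3.10.9 were used.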

Additional observations from a re-analysis of the deposited data

How the results depend on the processing

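No paired analysis was possible because each genotype had 1 section. The count of regulators at least 1.5-fold lower, 4 as reported, became 2 in the 50% of spots richest in cardiomyocyte markers. It was also 2 in the 50% poorest in fibroblast markers. Ppara and Ppargc1a remained in both subsets, and the cause was not tested. Of all genes, 11.8% and 12.7% were at least 1.5-fold lower in these subsets. These cardiomyocyte-rich spots still differed in marker share, at 7.72% in the control and 4.45% in the transgenic section. Under the other alternatives the count was between 3 and 5, and the count at least 1.5-fold higher was 0 under all. Apart from other UMI minimums, where no share was computed, those other alternatives gave 8.82% to 17.2% of all genes lower. The share of all genes higher ran from 20.7% to 32.0%. TMM factors and DESeq2 size factors lowered the median of all genes by 0.16 and 0.15 on the log2 scale and all regulators with it, and the share of all genes at least 1.5-fold lower and higher became 17.2% and 20.7% with TMM factors, against 12.9% and 27.4%. Over all alternatives the log2 ratio of Ppargc1a ran from -1.45 to -1.18, that of Ppara from -1.81 to -1.44, that of Esrra from -0.77 to -0.45 and that of Ppargc1b from -0.43 to -0.06. No regulator with an interval outside 0 changed sign. Correlations of raw UMIs followed spot depth, at 0.097 to 0.439 in the control section, against at most 0.084 per 10000 UMIs. With tiles of 8 rows by 16 columns, 31 of 90 control and 15 of 90 transgenic correlations with marker lists changed sign. Pparg, with 53 and 47 UMIs, and Nrf1, with 202 and 200, were too shallow for their direction to be read. Among the lists, the coactivators at least 1.5-fold higher numbered 1, against 2, under 3 further alternatives (totals without the 50 most abundant genes, spot means and 1 CPM added). The shares of all genes higher were 23.5%, 25.7% and 22.3% there.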

Other observations

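Cidea, a lipid droplet gene chosen here after its value was seen, stood at 25.9 CPM (control) and 112 CPM (transgenic), with a log2 ratio of 2.12 [1.95, 2.29]. The transthyretin gene Ttr, listed as a non-cardiac gene, was counted 21 and 253 times, with a log2 ratio of 3.74 [3.10, 4.46].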
